A study of Mus musculus with 6 samples.

Results

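Voltage-gated sodium channels carry the inward current that starts and conducts the action potential of sensory neurons. The genes described here are 7 pore-forming alpha subunits (Scn1a, Scn2a, Scn3a, Scn8a, Scn9a, Scn10a and Scn11a) and 2 accessory beta subunits (Scn2b and Scn3b), 9 genes among the 17178 gene symbols that could be given to probes. They were chosen by name, and each non-control probe whose transcript accession belongs to one of them in a RefSeq gene table was used. This gave 12 probes for 8 of the 9 genes. No probe was matched to Scn9a through that table, so this channel was not analysed here.

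Gene expression was measured in whole dorsal root ganglia of mice at postnatal day 4; these ganglia lie beside the spinal cord and hold the cell bodies of sensory neurons with their glia. The study compared 3 wild-type (WT) littermates with 3 dt27J animals, all of the C57BL/6 background and drawn from 2 litters, with 1 single-colour array per animal. In dt27J animals the mutated gene is Dst, which encodes the cytoskeletal linker dystonin and whose loss causes a sensory neuropathy, and the study's title calls the ganglia pre-phenotype. WT 1, WT 2, dt27J 1 and dt27J 2 carry the first of 2 dates given in the sample labels, and WT 3 and dt27J 3 the second; what the dates mark is not stated. The tissue is a mixture of cells, so fewer sensory neurons and less channel RNA per neuron cannot be told apart.

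Each alpha subunit forms a complete channel of 4 homologous domains around a sodium-selective pore, and beta subunits are single-pass membrane proteins that change the gating and surface level of the alpha subunit. In the ganglion, Scn9a, Scn10a and Scn11a encode the channels best known from nociceptors, the neurons that respond to painful stimuli. The channels of Scn10a and Scn11a resist the toxin tetrodotoxin and the others of this set do not. Scn8a encodes the main channel of mature nodes of Ranvier, Scn1a a channel of large sensory neurons, and Scn2a and Scn3a channels that are prominent early in development. In the mouse genome these genes lie in clusters. Scn10a and Scn11a are neighbouring protein-coding genes on chromosome 9, Scn1a, Scn9a and Scn7a are consecutive on chromosome 2, where Scn3a also neighbours Scn2a, and Scn2b neighbours Scn4b on chromosome 9, by the RefSeq annotation of assembly GRCm38.p6.

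The RefSeq promoter table of that build held windows for 7 of the 9 genes (9 windows). The 250 bases before the annotated start are shown for Scn11a, the member that passed the test below, and for Scn2b, the beta subunit with the largest difference, since these windows touch no annotated protein-coding gene. The Scn11a window lies at chr9:119825457-119825706 on the minus strand and the Scn2b window at chr9:45117626-45117875 on the plus strand, each written 5′ to 3′ along its gene. Capitals mark the only matches to the motifs searched, CAGCTG (an E-box) for Scn11a and ACCACA, the reverse complement of the RUNX core TGTGGT, for Scn2b.
Scn11a: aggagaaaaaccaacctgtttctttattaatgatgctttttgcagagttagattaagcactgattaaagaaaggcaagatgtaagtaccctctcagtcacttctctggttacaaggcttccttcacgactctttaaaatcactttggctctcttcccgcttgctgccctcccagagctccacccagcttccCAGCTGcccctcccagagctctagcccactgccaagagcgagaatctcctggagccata
Scn2b: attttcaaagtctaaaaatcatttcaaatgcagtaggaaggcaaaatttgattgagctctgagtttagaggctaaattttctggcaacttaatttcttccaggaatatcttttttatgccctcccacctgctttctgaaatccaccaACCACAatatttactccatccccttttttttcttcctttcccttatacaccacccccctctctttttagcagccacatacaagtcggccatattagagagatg

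Both strands were searched for the GC box GGGCGG, the RUNX core TGTGGT, the homeodomain core TAATTA, the TATA motif TATAAA, the RE1 left arm TTCAGCACC and the E-box CAGCTG, the last chosen after the Scn11a window was seen. Among all 32851 windows of this length the share with a match was 32.7% for the GC box, 14.0% for the RUNX core, 4.84% for the homeodomain core, 12.4% for the TATA motif, 0.301% for the RE1 arm and 13.0% for the E-box. The E-box of Scn11a began 59 bases before the start and the RUNX core of Scn2b 103 bases before it. The window of Scn10a, the chromosomal neighbour of Scn11a, held none of these letters, and neither did those of Scn1a, Scn8a and Scn9a. One Scn2a window held the RUNX core and the other the TATA motif. The GC content was 48.0% for Scn11a, 49.6% for Scn10a and 38.4% for Scn2b, against a median of 52.4% over all windows. These matches describe letters in a window and are not binding sites.

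The share of the 41174 non-control probes that the scanner software called well above background was 63.1% to 71.4% per array, and a probe was tested if it was so called on all 3 arrays of at least 1 genotype and had a value on all 6 arrays. Of the 12 sodium channel probes, 9 probes of 6 genes met both conditions, and 26248 probes did so in all. Values are log2 signals relative to the 75th percentile of the same array, and a difference is dt27J minus WT on that scale. Differences were tested with limma with the label date as a block, and p values were adjusted by Benjamini-Hochberg over all 26248 probes. Where a gene has several tested probes, the brightest stands for it. The number of arrays limits the precision. Dst itself, as a check of the labels, stood at 1.23 ± 0.18 (SD, n = 3) in WT and -1.45 ± 0.44 in dt27J on its brightest probe and fell by 2.68 (SE 0.26, adjusted p = 0.0341, limma).

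Of the 6 sodium channel genes tested, all had a negative difference, with a median of -0.91, though the sign turned for Scn2a, Scn8a and Scn3b with the planned centring of arrays on pan-neuronal genes and for Scn8a alone with a probe-centred form added later. Only Scn11a passed the adjusted threshold of 0.05. Over all tested probes, 53.6% had a negative difference, the median was -0.05, 1.88% passed as lower and 1.31% as higher. At an unadjusted p under 0.05, 4 of the 6 genes were lower (Scn8a, Scn10a, Scn11a and Scn2b), against 15.7% of all tested probes. The dt27J arrays all lay below the WT arrays for 3 of the 6 genes (Scn8a, Scn11a and Scn2b), against 16.0% of all tested probes.

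Scn11a encodes a persistent, tetrodotoxin-resistant channel of small nociceptors that sets the resting excitability of these cells. Its probe (A_51_P287823) stood at 3.89 in WT 1, 3.94 in WT 2, 4.13 in WT 3, 2.44 in dt27J 1, 2.45 in dt27J 2 and 3.47 in dt27J 3. The groups did not overlap, the WT animals were close together, and dt27J 3 lay between the other dt27J animals and WT. Scn11a fell by 1.20 (SE 0.23, adjusted p = 0.0495, limma, n = 3 arrays per genotype), to 43.6% of the WT signal with a 95% interval of 29.7% to 64.0%. It stood at 36.1% of WT within the first date and at 63.4% within the second. The call is at the edge of the threshold. It was lost, for example, with the authors' deposited values (-1.12, adjusted p = 0.0535) and without any single array of the first date (adjusted p 0.248 without WT 1, 0.171 without WT 2, 0.194 without dt27J 1 and 0.122 without dt27J 2). Without WT 3 or dt27J 3 the value was -1.47 (adjusted p = 0.0101). In those fits 13.2% of all tested probes passed as lower.

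Scn10a encodes the tetrodotoxin-resistant channel that carries most of the upstroke of the nociceptor action potential. Its probe (A_52_P616425) stood at 2.20, 2.69 and 1.90 in WT 1, 2 and 3 and at 0.74, 0.67 and 2.26 in dt27J 1, 2 and 3. The dt27J animals of the first date were low, and dt27J 3 lay inside the WT range. Over all arrays the difference was -1.04 (SE 0.43, 95% interval -2.08 to -0.01, adjusted p = 0.179, limma). Within the first date Scn10a was at 30.0% of WT and within the second, with 1 array per genotype, at 128% of WT. The genotype by date interaction was 2.09 (SE 0.39), with an unadjusted p of 0.00199 and an adjusted p of 0.0621 in limma. That interaction passed in 5 of 8 alternatives, among them the authors' deposited values (2.22, adjusted p = 0.0281). Over all tested probes, interaction calls also rose in these 5, for example from 218 in the main fit to 1623 with the authors' values. Without WT 3 or dt27J 3, which leaves the first date to set it, the genotype difference was -1.74 (adjusted p = 0.0108). Without either array, 13.2% of all tested probes passed as lower.

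**Figure D1:**
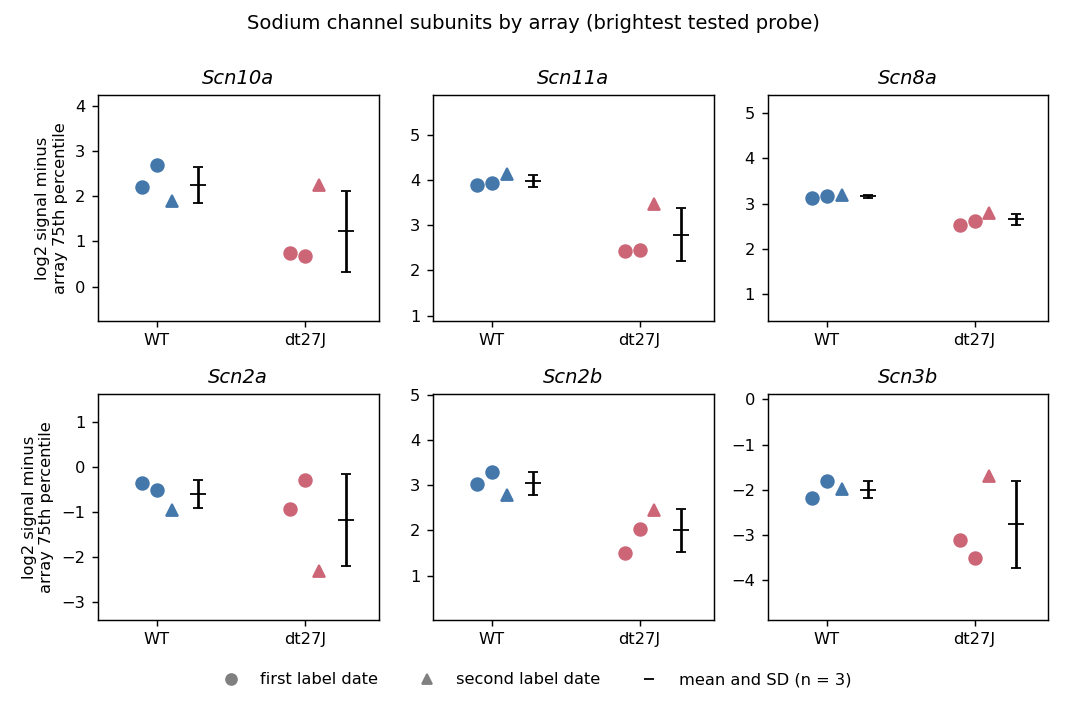
Log2 signal minus the array's 75th percentile (y axis) for each animal, by genotype, in 6 sodium channel genes; circles are the first label date, triangles the second, and black marks give the mean and SD of 3 arrays. The y axis spans the same number of log2 units in each panel. Scn11a, Scn8a and Scn2b do not overlap between genotypes, while dt27J 3 lies within or above the WT range for Scn10a (2.26) and Scn3b (-1.69) and below all other arrays for Scn2a (-2.30).

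Scn8a, whose channel clusters at nodes of Ranvier and axon initial segments of myelinated neurons, gave the tightest WT group of the tested members. Its brightest probe (A_52_P183239) stood at 3.13, 3.17 and 3.19 in the WT animals and at 2.53, 2.62 and 2.79 in the dt27J animals. The groups did not overlap, and the difference had the same sign in both dates (-0.58 and -0.39). It was -0.51 (SE 0.18, unadjusted p = 0.0278, adjusted p = 0.134, limma), or 70.0% of WT with an interval of 51.6% to 94.9%. A second, dimmer Scn8a probe was too dim to be called well above background on dt27J 2. It stood at -3.64, -3.06 and -3.31 in WT and at -4.69, -5.35 and -1.44 in dt27J. This probe was lower than WT within the first date (-1.67) and higher within the second (1.87), with an interaction of 3.54 (SE 0.54, adjusted p = 0.0533), so the 2 Scn8a probes did not behave alike on dt27J 3.

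Scn2a, an early channel of unmyelinated axons, had 3 tested probes. The brightest (A_51_P127738) stood at -0.35, -0.51 and -0.95 in WT and at -0.93, -0.30 and -2.30 in dt27J. Its difference of -0.57 (SE 0.31, 95% interval -1.32 to 0.17, adjusted p = 0.279) was -0.18 without dt27J 3 or WT 3. The other probes stood at -0.22 (interval -0.82 to 0.38, adjusted p = 0.591) and -0.15 (interval -0.69 to 0.39, adjusted p = 0.690), and neither showed dt27J 3 apart from the rest. With the planned centring on pan-neuronal genes the Scn2a and Scn8a differences were 0.37 and 0.43 (adjusted p = 0.334 and 0.249), and with the form added later -0.02 and 0.04 (adjusted p = 0.964 and 0.903).

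Scn1a and Scn3a were not tested. The Scn1a probe met the condition on signal through the WT arrays but lacked a value on 1 dt27J array. It stood at -3.32, -3.19 and -2.98 in WT, at -3.87 in dt27J 2 and at -2.82 in dt27J 3, and its spot on dt27J 1 was called an outlier by the scanner software. The dt27J 3 value was above all WT values and the dt27J 2 value below them. Scn3a, a channel of the embryonic nervous system, was dim. Its probes were well above background on WT 3, dt27J 1 and dt27J 3 for one and on dt27J 2 and dt27J 3 for the other, so no difference is given.

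Scn2b, a beta subunit that is disulfide-bonded to the alpha subunit and promotes its surface expression, had the largest difference of the beta genes. Its probe (A_51_P212741) stood at 3.03, 3.29 and 2.79 in WT and at 1.51, 2.04 and 2.45 in dt27J, and the groups did not overlap. The difference was -1.04 (SE 0.29, unadjusted p = 0.00995, adjusted p = 0.0837, limma), or 48.6% of WT with an interval of 30.0% to 78.9%. It was -1.39 within the first date and -0.34 within the second.

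Scn3b encodes a beta subunit that binds the alpha subunit without a covalent link. Its probe (A_51_P184340) stood at -2.19, -1.81 and -1.98 in WT and at -3.12, -3.51 and -1.69 in dt27J. The dt27J animals of the first date were low and dt27J 3 lay above the WT range. The difference was -0.78 (SE 0.36, 95% interval -1.64 to 0.09, adjusted p = 0.218), made of -1.31 in the first date and 0.29 in the second, with an interaction of 1.61 (SE 0.41, unadjusted p = 0.00851, adjusted p = 0.0897). Without WT 3 or dt27J 3 it was -1.31 and passed (adjusted p = 0.0182), as Scn2b did at -1.39 (adjusted p = 0.0178).

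**Figure D2:**
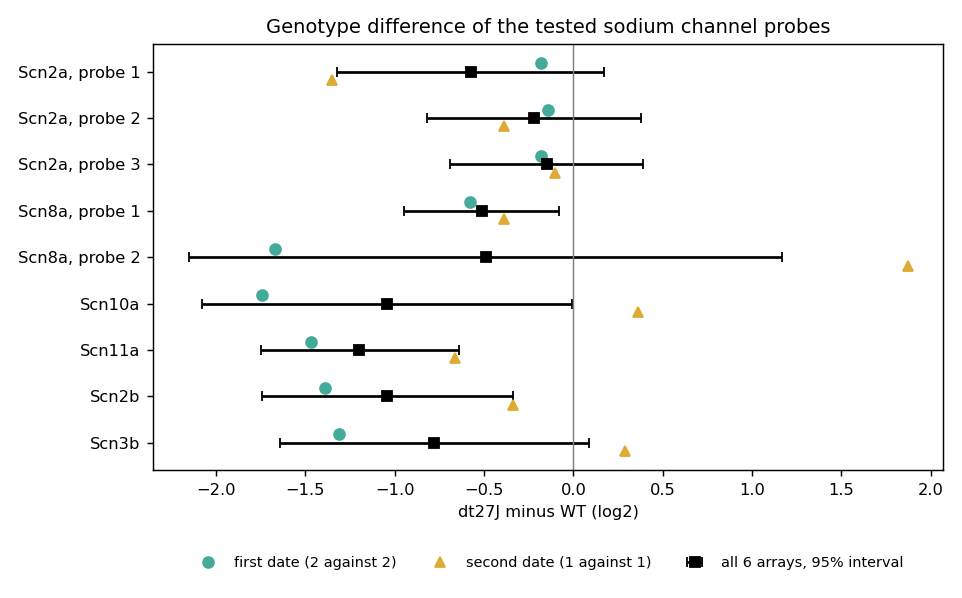
Difference dt27J minus WT in log2 units (x axis) of the 9 tested sodium channel probes; squares with bars are the fit on all 6 arrays and its 95% interval, circles the first date (2 arrays per genotype) and triangles the second (1 per genotype). All 9 squares lie below 0, and the second-date triangles of Scn10a (0.36), Scn3b (0.29) and the dimmer Scn8a probe (1.87) lie above 0.

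The members differed in how the genotype difference varied with date. Within the first date all 6 tested genes had a negative difference, with a median of -1.35, and within the second date 4 of 6 did, with a median of -0.37, while over all tested probes the medians were -0.01 and -0.13 and the negative shares 50.5% and 57.3%. A date effect itself passed for 0.107% of tested probes and for none of the family's. A difference that was negative in the first date and positive in the second was found for Scn10a and Scn3b, and for 18.2% of all tested probes. No tested gene of the family passed the adjusted threshold for the genotype by date interaction in limma, and 4 of 6 had an unadjusted p under 0.05. For Scn10a, Scn11a, Scn3b and Scn2b the second date lay above the first (for Scn2b, interaction 1.04, SE 0.43, unadjusted p = 0.0524). For Scn2a it lay below (interaction -1.17, SE 0.45), and for Scn8a the dates were close (interaction 0.18, SE 0.31, unadjusted p = 0.571). Over all tested probes 0.831% passed the adjusted threshold and 27.5% the unadjusted one. The second date has 1 animal per genotype, so its difference has no replicate check, and date, slide and animal cannot be told apart there.

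Nociceptor channels were set against the other subunits through the mean of Scn10a and Scn11a and the mean of Scn2a, Scn8a, Scn2b and Scn3b, each gene relative to its own mean over the 6 arrays. The nociceptor channels stood at 0.48, 0.75 and 0.45 in WT and at -0.97, -1.0 and 0.30 in dt27J. The other subunits stood at 0.37, 0.50 and 0.22 in WT and at -0.54, -0.33 and -0.22 in dt27J. Neither class mean overlapped between genotypes, though Scn10a, Scn2a and Scn3b did so singly. For the nociceptor channels, WT 3 (0.45) and dt27J 3 (0.30) were the closest. Of all tested probes, taken singly, 16.0% had every dt27J array below every WT array. On dt27J 3, relative to the WT mean, Scn10a stood at -0.01 and Scn11a at -0.51 among the nociceptor channels, and the others ranged from -1.70 for Scn2a to 0.31 for Scn3b.

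The nociceptor channels minus the others gave 0.20 ± 0.07 (SD, n = 3) in WT and -0.20 ± 0.64 in dt27J. The difference of -0.39 was smaller than the spread of the dt27J animals, and the groups overlapped. It was -0.74 within the first date and 0.30 within the second. A stronger difference of the nociceptor channels was therefore not shown, and with Scn9a missing the class rests on 2 genes.

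**Figure D3:**
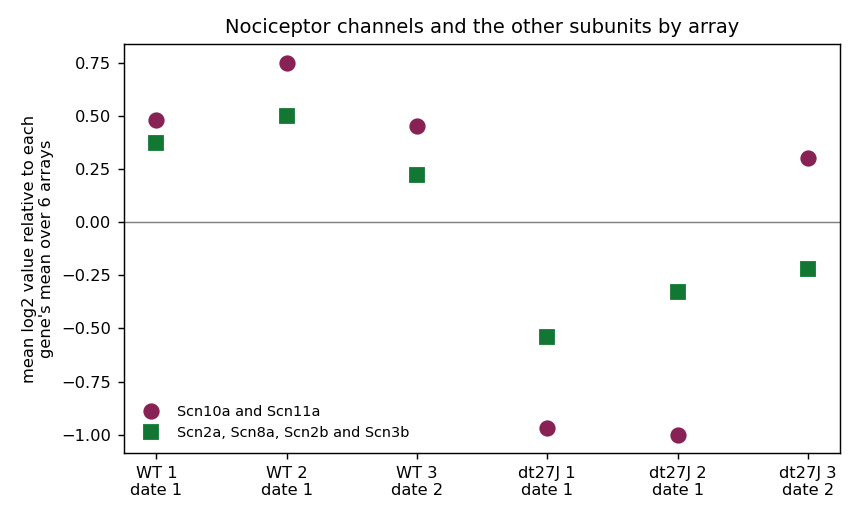
Mean log2 value relative to each gene's mean over 6 arrays (y axis) on each array (x axis, with its label date) for Scn10a and Scn11a (circles) and for Scn2a, Scn8a, Scn2b and Scn3b (squares). On dt27J 1 and dt27J 2 the circles lie at -0.97 and -1.0, below the squares, and on dt27J 3 the circle lies at 0.30, above the square at -0.22.

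Markers of neurons and of tissues around the ganglion moved across the same arrays. Of 21 tested pan-neuronal genes, 20 had a negative difference (median -0.50, 1 lower past the threshold), all 21 were well above background on all arrays, and their summed signal, in units of the array's 75th percentile, ranged from 1170 to 1320 in WT and from 840 to 1060 in dt27J. Of 18 nociceptor markers, 16 had a negative difference (median -0.38, 2 lower past the threshold), with medians of -0.64 and -0.14 in the first and second date. Their summed signal was 314 to 340 in WT and 187 to 263 in dt27J. Of 18 markers of large-diameter sensory neurons, 11 had a negative difference (median -0.28, 2 lower and 1 higher past the threshold). The shares of all tested probes were 53.6% negative, 1.88% lower and 1.31% higher past the threshold.

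Centring each array on the pan-neuronal genes took 2 forms. In the planned form, on the median level of the list, the value taken off is that of the middle gene of the list on each array. All tested probes then had a median of 0.90, while the list's own median difference had been -0.50, and the sodium channel genes one of 0.04. Scn11a stood at -0.25 (adjusted p = 0.516), Scn10a and Scn2b at -0.09 each, and Scn2a, Scn8a and Scn3b at 0.37, 0.43 and 0.17. The second form, chosen after the data were seen, first removed each probe's mean, and all tested probes then had a median of 0.50. Here the sodium channel genes had a median of -0.36, with Scn11a at -0.65 (adjusted p = 0.0810), Scn10a and Scn2b at -0.49 each, Scn3b at -0.23, Scn2a at -0.02 and Scn8a at 0.04. On the brightest probe of each gene, no member passed the adjusted threshold in either form (0 and 1 at an unadjusted p under 0.05, limma). The dimmest Scn2a probe passed as higher in the planned form (0.79, adjusted p = 0.0397, limma), where 58.8% of all tested probes passed.

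Sympathetic neuron markers separated the arrays in another way. Relative to the WT mean their median was -1.53 and -1.46 in WT 1 and WT 2, 3.05 in WT 3, 2.92 and 3.56 in dt27J 1 and dt27J 2, and -1.77 in dt27J 3. Their summed signal ranged from 1.07 to 19.5 in WT and from 0.817 to 38.7 in dt27J, and 0 of 10 tested markers passed for genotype (1, higher, at an unadjusted p under 0.05, limma). All 11 were well above background on WT 3, dt27J 1 and dt27J 2, and Slc6a2, Gata3 and Hand2 were not on WT 1 and WT 2. Scn10a ran opposite to these markers, at 2.20, 2.69 and 2.26 on WT 1, WT 2 and dt27J 3, where they were low, and at 1.90, 0.74 and 0.67 on WT 3, dt27J 1 and dt27J 2, where they were high. Scn11a did not keep that order, with its highest value (4.13) on WT 3 and 3.47 on dt27J 3. The part of this tissue in the sodium channel values was not tested.

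By their median, spinal cord markers were high in WT 1 and WT 2 alone (1.14 and 1.07, against -2.32 in WT 3 and -2.62 to -2.0 in dt27J). Of 11 tested, 9 had a negative difference and 1 was lower past the threshold, and their summed signal was 4.98 to 32.0 in WT and 5.45 to 10.7 in dt27J. All 15 with a probe were well above background on WT 1 and WT 2, 11 on WT 3, 9 each on dt27J 1 and dt27J 2, and 13 on dt27J 3. Slc6a5 and Mog were well above background in no array other than WT 1 and WT 2. Gad2 and Nkx2-2 were so on dt27J 3 as well, but not on WT 3, dt27J 1 or dt27J 2. On WT 3, where these markers were low, Scn11a and Scn8a were above WT 1 and WT 2 and Scn3b lay between them, while Scn10a (1.90), Scn2b (2.79) and Scn2a (-0.95) were below both. Skeletal muscle markers had a positive difference in 16 of 16 (median 1.66, 5 higher past the threshold), with summed signals of 20.2 to 68.4 in WT and 63.8 to 124 in dt27J, and all 16 were well above background on 5 arrays and 15 on WT 2. In the second date, which holds 1 animal of each genotype, the spinal cord and muscle lists had median differences of 0.08 and 0.22. Their single genes ranged from -1.66 to 2.03 and from -0.58 to 2.20, and the sympathetic list had a median of -4.77. In that date Scn11a, Scn8a, Scn2b and Scn2a had negative differences (-0.66, -0.39, -0.34 and -1.35) and Scn10a and Scn3b positive ones (0.36 and 0.29). The part of these tissues in the sodium channel values was not tested.

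Glial and vessel markers had no call past the adjusted threshold in the direction of the sodium channels, of which 1 passed. The 13 Schwann cell genes had a median of -0.01 (7 negative, 2 higher past the threshold), the 12 satellite glia genes one of -0.21 (8 negative, 2 higher), and the 12 endothelial genes one of 0.73 (0 negative, 1 higher). At an unadjusted p under 0.05 in limma, 4 satellite glia genes were lower and 3 higher. For Schwann cell genes these counts were 0 and 5, and for endothelial genes 0 and 8. Of all tested probes, 15.7% were lower at that unadjusted p.

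**Figure D4:**
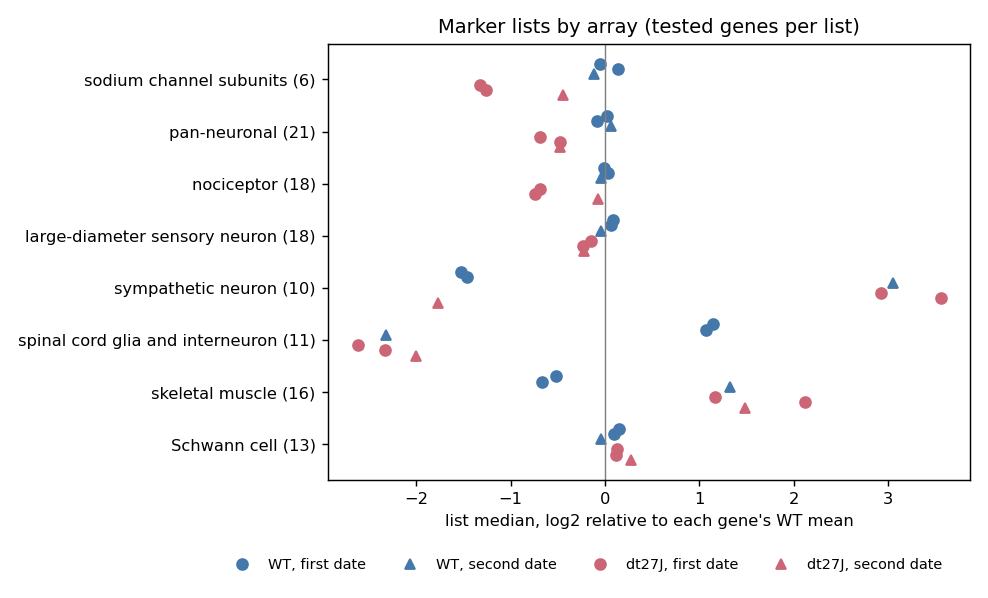
Median log2 value relative to each gene's WT mean (x axis) of each marker list on each array; blue marks are WT, red marks dt27J, circles the first date, triangles the second, and the number of tested genes stands beside each list. The sodium channel genes lie at -1.32 and -1.26 in dt27J 1 and dt27J 2 and at -0.44 in dt27J 3, while sympathetic markers are high in WT 3, dt27J 1 and dt27J 2.

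Further sodium channel genes and channel partners were read beside the subunits. Scn7a, which encodes an atypical, sodium-sensing member of the family, stood at -2.22, -2.35 and -2.15 in WT and at -4.20, -3.66 and -2.74 in dt27J. The groups did not overlap, and as for Scn11a and Scn2b the highest dt27J value was that of dt27J 3. The difference was -1.30 (SE 0.29, 95% interval -1.99 to -0.61, adjusted p = 0.0582, limma), with -1.65 in the first date and -0.60 in the second. Scn4a, the skeletal muscle channel, stood at -0.49 (interval -0.96 to -0.02, adjusted p = 0.170). No probe was matched to Scn4b.

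Partners of the channels, the proteins that anchor, traffic or modulate them, went both ways. Of 18 genes, 12 had a negative difference (median -0.26) and 0 passed the adjusted threshold in limma, with 7 lower and 0 higher at an unadjusted p under 0.05. Of all tested probes, 53.6% had a negative difference and 15.7% were lower at that unadjusted p. The adhesion molecules of the axon membrane Nfasc and Cntn1 stood at -1.72 (SE 0.38, adjusted p = 0.0573) and -1.02 (SE 0.20, adjusted p = 0.0514) on their brightest probes, and WT 3 lay among the dt27J values for Nfasc (-1.82, against 0.20 and 0.23 in the other WT animals). The other Nfasc probes stood at -0.50 (adjusted p = 0.197, limma) and -1.56 (adjusted p = 0.0984, limma). Fgf12 and Fgf13, intracellular fibroblast growth factor homologues that bind the channel's C-terminus, stood at -1.18 (adjusted p = 0.0750) and -0.76 (adjusted p = 0.158) on their brightest probes. The other Fgf12 probe stood at -0.74 and the other Fgf13 probes at -0.44 and -0.48. Ank3, the ankyrin that holds sodium channels at nodes and initial segments, stood at -0.57 on its brightest probe and 0.36 on another (adjusted p = 0.235 and 0.477). S100a10, a light chain that carries the Scn10a channel to the membrane, stood at -0.16 (interval -0.74 to 0.41). Nedd4, a ubiquitin ligase that removes channels from the membrane, stood at 0.38 (interval -0.10 to 0.85) on its brightest probe. Its other probe stood at -0.25 (interval -0.89 to 0.39), so the 2 Nedd4 probes had opposite signs.

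**Figure D5:**
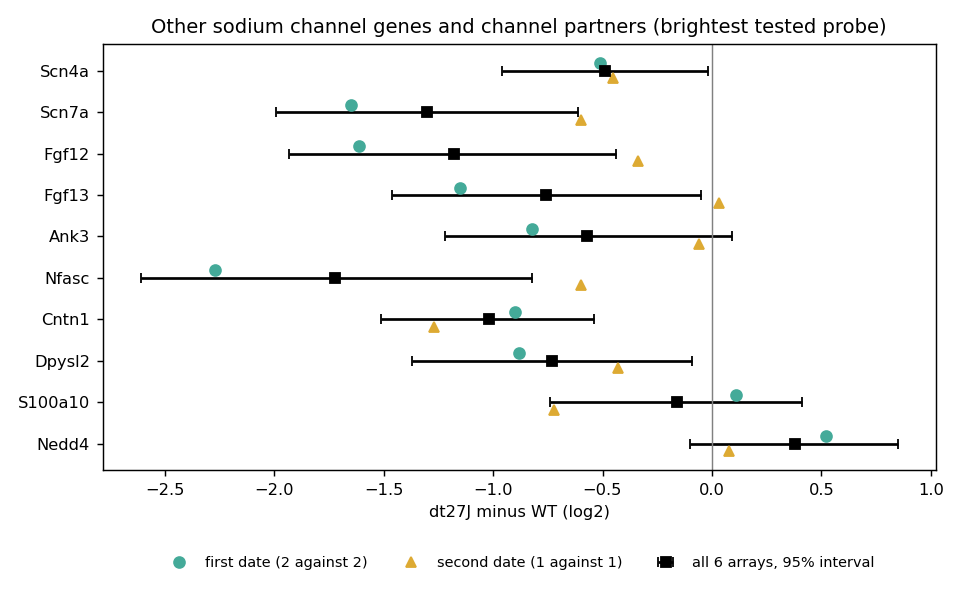
Difference dt27J minus WT in log2 units (x axis) for the sodium channel genes Scn4a and Scn7a and 8 channel partners, with the fit on all 6 arrays and its 95% interval (squares and bars), the first date (circles) and the second date (triangles). Each gene is shown by its brightest tested probe. Nfasc lies lowest, at -1.72, Nedd4 is the one gene shown above 0, at 0.38, and none of these genes passed the adjusted threshold. Other probes are not shown, among them those of Nfasc (-0.50 and -1.56) and Nedd4 (-0.25).

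The genes with a pattern most like the mean of the 6 tested members were sought among 13101 symbols by the root mean square distance of centred log2 values over the 6 arrays. They were Pdxp, at a distance of 0.0601, Fat3 (0.0712), Sprn (0.0713), Sugp2 (0.0784), Adcy1 (0.0806), Rad23b (0.0823), Lin7a (0.0856) and Pde1c (0.0895). The members themselves lay farther from their own mean, from 0.165 for Scn2b and 0.225 for Scn8a to 0.397 for Scn3b and 0.791 for Scn2a. The 8 genes were picked for small distances, so the members' own distances are not to be read against theirs.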

How the data were processed

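Total RNA (300 ng) was labelled with Cy3, per the labels' protocols. The authors deposited scanner intensity values from Agilent Feature Extraction 10.5.1.1, whose file headers report background-subtracted signals and spatial detrending. They also deposited log2 values per probe and array, which are relative to the probe's median across arrays; how arrays were normalized there is not given in the sources used.

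Control spots and outlier spots were left out, spots of a probe averaged, and log2 intensity taken minus the 75th percentile of the array's non-control spots (signal 369.5 to 580). Accessions were matched without version to RefSeq (GRCm38.p6); 24844 of 41174 probes gained a symbol. limma 3.58.1 in R 4.3.3 fitted genotype and label date on all 6 arrays (two-sided moderated tests, 3 residual degrees of freedom plus 3.74 from the prior), tested on simulated data, and a second fit added their interaction. The slide follows the date. The members and lists were chosen with earlier results of these data known. All probes of the members are reported; other genes named come from the family and partner lists, some of which are not reported here, and the 8 most alike. Alternatives covered block, scaling, background, filter, array weights, the authors' values and leaving out each array.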

Additional observations from a re-analysis of the deposited data

How the results depend on the processing

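Of the 6 tested genes, 1 (Scn11a) passed in the main fit. With limma, 0 passed without the date block (3 at an unadjusted p under 0.05), with the replicate number as a block (2), after quantile normalization (3), with planned pan-neuronal centring (0), with the added pan-neuronal centring (1), after normexp (4), without a filter on dim probes (3) and with the authors' values (3), and 5 passed with array weights. Scn11a alone passed after normexp with high local backgrounds replaced (adjusted p = 0.0267, limma). It also passed alone on probes well above background on all 6 arrays (adjusted p = 0.0472, limma). Leaving out 1 array gave 0 to 4, the 4 without WT 3 or dt27J 3. Of all tested probes, 24.5% passed as lower with array weights and 13.2% without WT 3 or dt27J 3, against 1.88% in the main fit. The median of -0.91 became 0.04 and -0.36 under the planned and the added pan-neuronal centring and -1.35 to -0.72 on leaving out 1 array. For the interaction, 1 gene in place of 0 passed with planned pan-neuronal centring, on probes well above background on all 6 arrays, with the authors' values and after normexp with high local backgrounds replaced, and 3 after normexp. Over all tested probes, 218 passed for the interaction in the main fit and 854 with planned centring. The count was 994 on probes well above background on all 6 arrays and 1623 with the authors' values. It was 1142 after normexp and 2773 with high local backgrounds replaced. The nociceptor contrast stayed negative, between -0.74 and -0.22, in all alternatives run. By construction neither form of pan-neuronal centring could change it, since a shift of a whole array cancels. The -0.74 came without WT 3 or dt27J 3 and is the first date alone. Where the second date was kept, its contrast was positive (0.26 to 0.43), except with the mean over all tested probes of a gene (-0.17).

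Whether the replicate numbers of the labels pair the animals was not settled. Deviations from the genotype means correlated at 0.22, -0.15 and 0.06 between same-numbered arrays. WT 3 and dt27J 3, which share date and slide, gave the 0.06, so these correlations cannot decide the question. The replicate block left Scn11a at -1.20 (adjusted p = 0.115, limma).

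The sign turned under planned pan-neuronal centring for Scn2a (0.37, 0.72 and 0.79 on its probes), Scn8a (0.43 and 0.46), Scn3b (0.17), Scn4a (0.46), Fgf13 (0.19), Ank3 (0.38), Dpysl2 (0.22) and S100a10 (0.78), and under the added one for the dimmer Scn2a probes (0.33 and 0.40), Scn8a (0.04 and 0.06), Scn4a (0.06) and S100a10 (0.39). The dimmest Scn2a probe turned with the authors' values (0.04) and under quantile scaling (0.02), and ranged from -0.31 to 0.02 on leaving out 1 array; its interaction turned to -0.08, -0.17 and -0.28 under the added centring and both normexp forms. The dimmer Scn8a probe turned to 0.08 after normexp with high local backgrounds replaced and ranged from -1.67 to 0.03 on leaving out 1 array. S100a10 turned to 0.06 with array weights and ranged from -0.31 to 0.11. The centring shifts all probes, by its construction; the other causes were not tested.

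Over all probes, 838 passed in the main fit (41.1% higher), 977 after quantile normalization (55.0%), 1175 with the authors' values (52.3%), 358 after normexp (72.9%), 1391 with high local backgrounds replaced (42.4%), 806 on probes well above background on all 6 arrays, 15424 and 6664 with the planned and added centring (98.2% and 94.2%), 12199 with array weights, 14 without the date block, 2 with the replicate block and 0 without the filter (8485 at an unadjusted p under 0.05). Leaving out 1 array gave 0 to 6805.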
